A study of Mus musculus with 20 samples.

Results

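The genes described here are the serpins that could be measured in mouse whole lung. They were chosen by gene symbol (Serpin, a clade letter from a to i and a number) and by level, with a normalised signal of 10 or more in at least 4 libraries. The deposited table held 47 serpin rows, of which 26 met both conditions and 21 stayed under the level filter, among 30691 named rows of which 21658 passed the same filter. The values that chose the members were the signals themselves, without regard to group.

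Whole-lung RNA was sequenced as 20 libraries, in 4 groups set by genotype and oxygen. VIPKO hypoxia (n = 5) and VIPKO normoxia (n = 4) are mice that lack the gene for vasoactive intestinal peptide, and WT hypoxia (n = 5) and WT normoxia (n = 6) are wild-type C57BL/6 mice. Hypoxia means 10% oxygen and normoxia 21% oxygen, each for 4 weeks. The titles of the samples and the series design call the mutants knockouts, while the genotype field calls them a knockdown. The series title names a targeted deletion of the gene, and the labels used here give no further allele, age or sex, and do not say that each library came from a separate mouse, so that p-values here speak of the spread among these libraries only, which may be technical.

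Serpins are a family of proteins with a shared fold. Most inhibit serine proteases by a suicide mechanism: the protease cuts an exposed reactive loop, the serpin changes shape and the protease stays trapped in a covalent complex. In the lung and its vessels they hold back neutrophil elastase, thrombin, plasminogen activators and complement proteases, while a few members have lost inhibition and work as a collagen chaperone, a hormone carrier or an angiogenesis regulator. Clade letters mark relatedness: clade A holds mostly secreted plasma proteins, clade B mostly intracellular inhibitors.

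Alveolar type 2, alveolar type 1 and endothelial marker genes were abundant in every library, with summed signals of at least 87580, 26426 and 28924. The targeted gene, Vip, was near the detection floor in most libraries of both genotypes, which leaves little to check the labels with. It reached 106 in the library labelled VIPKO hypoxia 4, against 93.0 in WT normoxia 5, the highest WT library, so the first of these goes against its label. Depth estimated from the smallest step between values ran from 4.96 to 56.7 M reads in 19 libraries, and in VIPKO hypoxia 2 the step gave 113 M and may not be 1 read. Summed mitochondrial ribosomal RNA signal was 4506 to 9415 in VIPKO hypoxia, 12034 to 27208 in VIPKO normoxia, 396 to 7058 in WT hypoxia and 97.7 to 2075 in WT normoxia. VIPKO normoxia lay above every other group without overlap. In contrasts that use VIPKO normoxia, a fit with this signal as a covariate thus cannot separate it from the groups. VIPKO hypoxia 3 had thymus markers summing to 15852, where the next library had 27.4. WT hypoxia 5 had squamous epithelial markers summing to 87650 and skeletal muscle markers to 32638, where the next libraries had 772 and 975.2.

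The 26 genes span 9 clades, with 10 in clade A, 8 in clade B, 2 in clade E and 1 in each of the others. Their loci cluster: 9 lie on chromosome 12, 5 on chromosome 1 and 5 on chromosome 13 (GRCm38, GENCODE vM21). Signal divided by exonic length put Serpinh1, which encodes the collagen chaperone of the endoplasmic reticulum, and Serping1, which encodes C1 inhibitor, at the top. Per kilobase of exon, Serpinh1 averaged 2535 in VIPKO hypoxia, 1528 in VIPKO normoxia, 1659.6 in WT hypoxia and 2182.5 in WT normoxia. On the same per-length scale Serping1 averaged 2675, 2137, 2057 and 1881 in those groups in that order. Serpina3n came next on that scale in every group but WT hypoxia, where Serpinb6b and Serpinb9 lay above it, and Serpinb9b was among the 3 lowest in each group. Of the 26 genes 16 reached 10 in all 20 libraries.

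**Figure D1:**
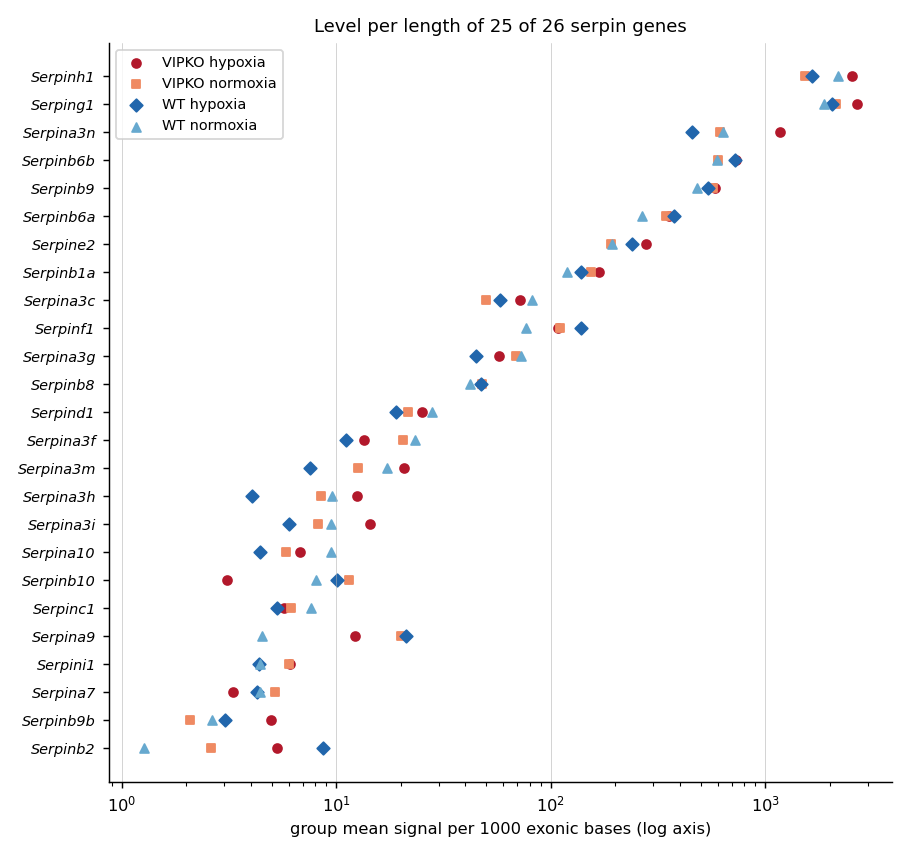
Group mean signal per kilobase of exon (x axis, log scale) of 25 of the 26 serpin genes (y axis, ordered by the WT normoxia mean), with one symbol per group. Serpinh1 and Serping1 stand apart at the upper end, with Serpinh1 between 1528 and 2535. VIPKO hypoxia is the rightmost group for Serpina3n and the leftmost for Serpinb10.

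Closest to the filter from within, Serpinb2 reached 10 in 6 libraries, and Serpinb9b and Serpina7 in 9. From outside, Serpinb1b reached it in 3 and Serpinb5 in 2. Serpinb2 passed only through VIPKO hypoxia, where 4 of its 6 libraries lay. Of the 21 genes under the filter 10 never reached 10. A count of 0 allows a signal of up to 0.522 to 11.7 depending on the library (3 reads, for counting error only), so a low gene cannot be told from an absent one in the shallowest library, WT hypoxia 4.

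Each gene was tested with limma on log2(signal + 1) over all 20 libraries, with Benjamini-Hochberg adjustment over 21658 genes and a threshold of 0.05. Fold changes are on that scale, which understates the change of low genes. The design asks what the deletion did in normoxia and in hypoxia, what hypoxia did in each genotype, and whether its effect differed between genotypes. In VIPKO hypoxia against WT hypoxia 2 of the 26 were called, Serpina3n higher and Serpinb10 lower, beside 1.62% of all genes tested (0.716% higher and 0.9% lower). In VIPKO hypoxia against VIPKO normoxia the called genes were again Serpina3n, higher, and Serpinb10, lower, beside 0.997% of all genes (0.614% higher and 0.383% lower). These comparisons share the VIPKO hypoxia libraries. In VIPKO normoxia against WT normoxia only Serpina9 was called, higher, beside 8.65% of all genes (4.69% higher and 3.96% lower). In WT hypoxia against WT normoxia 4 were called, Serpina9, Serpinb6a and Serpinf1 higher and Serpina10 lower, beside 14.7% of all genes (7.88% higher and 6.77% lower). The interaction, which tests whether the hypoxia effect differed between genotypes, called Serpina3n and Serpina9, beside 0.282% of all genes (0.134% positive and 0.148% negative).

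The shares of members called in the WT hypoxia and normoxia genotype comparisons (4 and 1 of 26) were thus near or under the background. At an unadjusted p under 0.05 the counts of the 26 were 8 for VIPKO hypoxia against WT hypoxia, 7 for VIPKO hypoxia against VIPKO normoxia, 6 for VIPKO normoxia against WT normoxia, 14 for WT hypoxia against WT normoxia and 12 for the interaction. The shares of all genes at that level were 18.8%, 13%, 25.3%, 33% and 14.2% in the same order. Serpinb2, which passed the filter only through VIPKO hypoxia, is left out of the medians and signs that follow. The median log2 fold change over the other 25 was 0.29 in VIPKO hypoxia against WT hypoxia, where that over all genes was 0.02, and 0.21 in VIPKO hypoxia against VIPKO normoxia, where that over all genes was -0.01. In the first of these 21 of the 25 estimates were positive and in the second 17. In the other pairwise comparisons 12 were positive and 13 negative, with medians of -0.0015 in VIPKO normoxia against WT normoxia and -0.06 in WT hypoxia against WT normoxia. Over all 5 contrasts 20 of the 26 genes were never called. The matching share of all genes was not computed, so this count is read as neither few nor many. Groups did not overlap for 3 genes in VIPKO hypoxia against WT hypoxia (Serpina3n and Serpind1 higher, Serpinb10 lower), where 1.81% of all genes lay wholly higher and 1.95% wholly lower. They did not overlap for 4 in VIPKO hypoxia against VIPKO normoxia (Serpina3n, Serpine2 and Serpinh1 higher, Serpinb10 lower), where the shares of all genes were 2.7% and 2.44%. In VIPKO normoxia against WT normoxia 1 serpin lay wholly lower, Serpinh1, and none higher, where 5.13% of all genes lay wholly lower and 4.75% wholly higher. In WT hypoxia against WT normoxia Serpina9 lay wholly higher and Serpina3f wholly lower, where 4.13% of all genes lay wholly higher and 3.81% wholly lower.

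**Figure D2:**
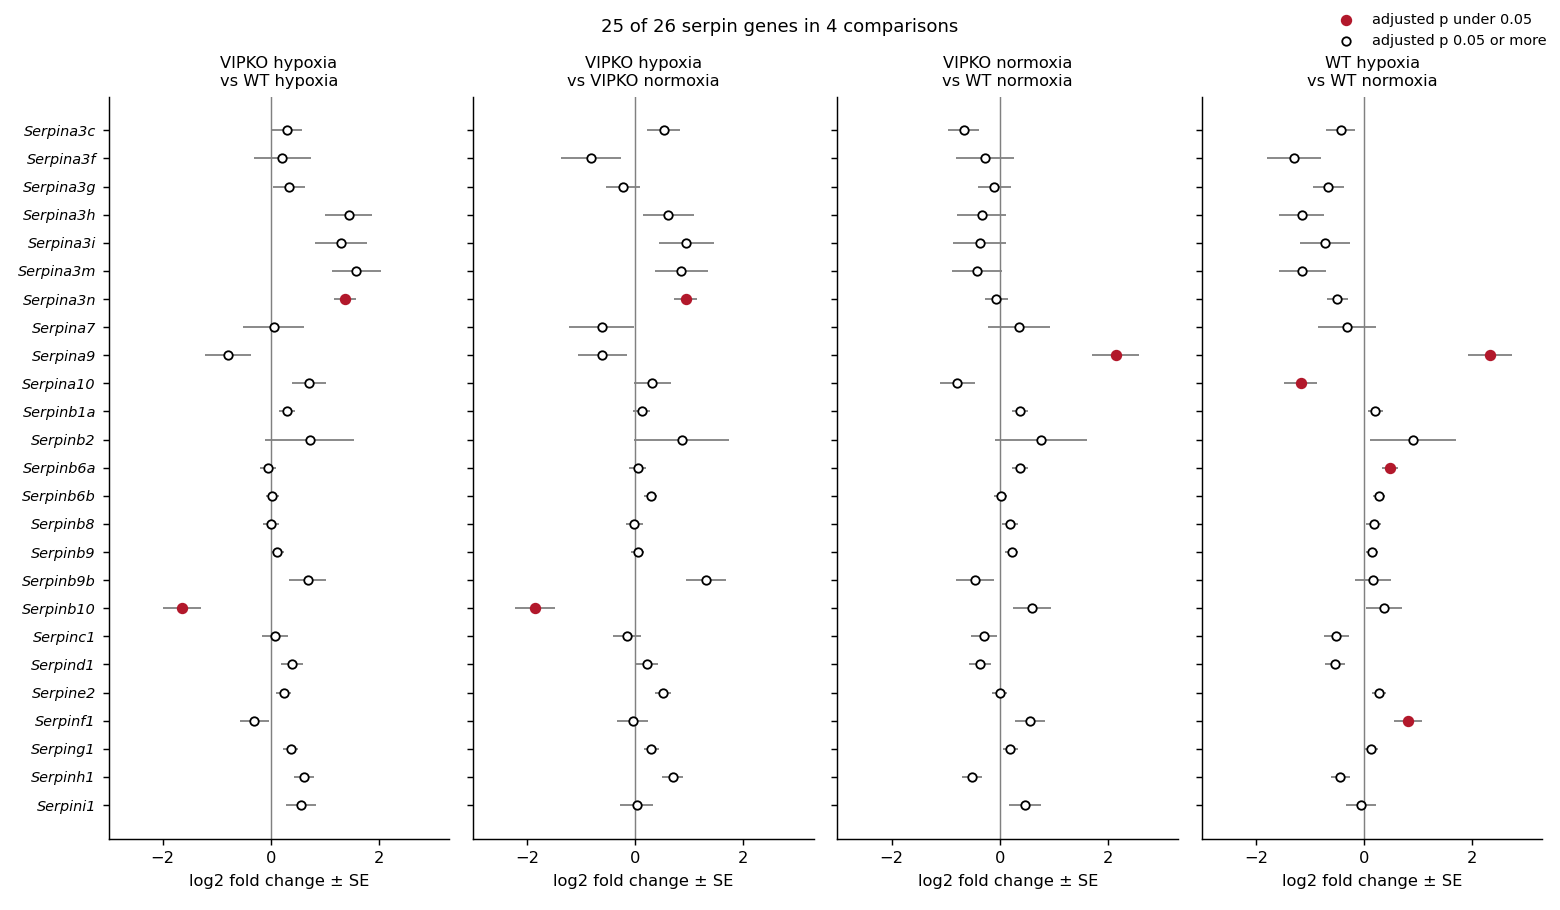
Log2 fold change ± SE from limma (x axis) of 25 of the 26 serpin genes (y axis) in 4 comparisons, with filled points for adjusted p under 0.05. Serpina3n lies to the right and Serpinb10 to the left in both comparisons of VIPKO hypoxia, and Serpina9 lies to the right in both comparisons against WT normoxia.

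The clade A members of the Serpina3 group are the mouse relatives of the human gene for alpha-1-antichymotrypsin, an acute phase protein. They sit side by side on chromosome 12 and differ in the reactive loop. Serpina3n, which in mice inhibits granzyme B and leukocyte elastase, was called higher in both comparisons of VIPKO hypoxia. Its signal was 2439.8, 1844, 1935, 2983 and 2869 in VIPKO hypoxia 1 to 5 and 1312, 1734, 938 and 1098 in VIPKO normoxia 1 to 4. In WT hypoxia 1 to 5 it was 575, 1206, 949, 1104 and 882, and in WT normoxia its lowest, median and highest values were 981, 1292 and 1642. Every VIPKO hypoxia library lay above every other library, and the other groups overlapped one another.

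Serpina3n (chromosome 12, 104406729 to 104414329, plus strand) rose 2.59-fold in VIPKO hypoxia against WT hypoxia, a log2 fold change of 1.37 ± 0.20 (adjusted p = 0.00295). The groups did not overlap, which held in the same direction for 1.81% of all genes. The call held in all 33 alternative fits, which changed the scaling, filter, pseudocount, model or libraries, with adjusted p from 0.00119 to 0.0453. Without the library labelled VIPKO hypoxia 4, whose Vip signal goes against its label, the log2 fold change was 1.29 (adjusted p = 0.0159), and with mitochondrial ribosomal RNA as a covariate it was 1.51 (adjusted p = 0.0282). In whole tissue, more RNA per cell and more cells that make it cannot be told apart.

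Against VIPKO normoxia, Serpina3n rose 1.91-fold in VIPKO hypoxia, a log2 fold change of 0.94 ± 0.21 (adjusted p = 0.0359). Its adjusted p was 0.0828 without VIPKO hypoxia 1, 0.105 without the library labelled VIPKO hypoxia 4 and 0.0787 without VIPKO hypoxia 5. It was 0.0524, 0.174 and 0.111 without VIPKO normoxia 1, 3 and 4. The call also ended with mitochondrial ribosomal RNA as a covariate (log2 fold change 0.85, adjusted p = 0.108) and without VIPKO normoxia 2 and 3 and VIPKO hypoxia 2 together (adjusted p = 0.126). It ended with quantile normalisation (adjusted p = 0.0601), without a variance trend (adjusted p = 0.0727) and with the compared groups fitted alone (adjusted p = 0.0701). The log2 fold change stayed between 0.80 and 1.10 over all 33 alternative fits. In WT hypoxia against WT normoxia the estimate had the opposite sign, -0.49 ± 0.19 (adjusted p = 0.0832), and the interaction was 1.43 ± 0.29 (adjusted p = 0.0384). That interaction was called in 17 of 32 alternative fits. It was kept without VIPKO hypoxia 2 or 3, VIPKO normoxia 1 or 2, WT hypoxia 2, 4 or 5, or WT normoxia 5 or 6, and lost without any of the other 11 libraries, with adjusted p up to 0.115. It was also lost with mitochondrial ribosomal RNA as a covariate (1.29, adjusted p = 0.148), without VIPKO normoxia 2 and 3 and VIPKO hypoxia 2 together (adjusted p = 0.145) and without a variance trend (adjusted p = 0.0703).

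In VIPKO hypoxia against WT hypoxia the other Serpina3 genes tested gave estimates of the same sign as Serpina3n. None was called in any contrast. Against VIPKO normoxia the signs were mixed. Serpina3f (log2 fold change -0.82 ± 0.56) and Serpina3g (-0.22 ± 0.32) had negative estimates there, and Serpina3c, Serpina3h, Serpina3i and Serpina3m positive ones. In VIPKO hypoxia against WT hypoxia, Serpina3m had a log2 fold change of 1.58 ± 0.46 (adjusted p = 0.0738), Serpina3h 1.44 ± 0.44 (adjusted p = 0.09) and Serpina3i 1.30 ± 0.48 (adjusted p = 0.15). These are low genes: Serpina3m measured 26.5 to 41.9 in VIPKO hypoxia and 6.85 to 30.5 in WT hypoxia, and the groups overlapped. Serpina3c, Serpina3f and Serpina3g, the last of which inhibits cathepsins in mice, had smaller estimates of 0.29 ± 0.28, 0.21 ± 0.53 and 0.33 ± 0.30, and that of Serpina3f kept its sign in 28 of 33 alternative fits. Sequence is shared within the group, so part of a read's assignment can be uncertain: 24.4% of 50-base stretches in Serpina3h, 19.1% in Serpina3m, 15.4% in Serpina3i and 6.90% in Serpina3n also occur in another gene. Serpina3h is annotated as a transcribed pseudogene, and Serpina3m overlaps Serpina3k and a pseudogene on the same strand.

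The promoter windows below (300 bases around the transcription start, RefSeq, GRCm38.p6, written 5′ to 3′ on the gene's strand) show what the called gene and its uncalled neighbours share and where they part. The Serpina3n window (chr12:104406458-104406757, plus strand) is 89.9% identical to that of Serpina3c (chr12:104153823-104154122, minus strand) and 63.4% identical to that of Serpina3i (chr12:104262872-104263171, plus strand). Against Serpina3g (chr12:104235897-104236196, plus strand) it is 38% identical. Capitals mark TTCNNNGAA, the letters STAT factors of the acute phase response recognise, in Serpina3i and Serpina3g, the heat shock element GAANNTTC in Serpina3c and the CCAAT box (as ATTGG, on the other strand) in Serpina3i.
Serpina3n: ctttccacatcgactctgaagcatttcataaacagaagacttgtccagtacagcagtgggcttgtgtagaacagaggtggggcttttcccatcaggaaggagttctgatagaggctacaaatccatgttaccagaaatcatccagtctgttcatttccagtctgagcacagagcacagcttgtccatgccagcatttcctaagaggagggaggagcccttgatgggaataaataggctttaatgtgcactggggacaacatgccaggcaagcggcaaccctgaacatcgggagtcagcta
Serpina3c: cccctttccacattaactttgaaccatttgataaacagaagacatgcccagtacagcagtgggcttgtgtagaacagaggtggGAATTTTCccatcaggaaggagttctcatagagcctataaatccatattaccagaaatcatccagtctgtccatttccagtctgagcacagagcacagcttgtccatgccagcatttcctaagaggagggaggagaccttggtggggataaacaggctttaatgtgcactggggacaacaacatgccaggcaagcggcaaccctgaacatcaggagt
Serpina3i: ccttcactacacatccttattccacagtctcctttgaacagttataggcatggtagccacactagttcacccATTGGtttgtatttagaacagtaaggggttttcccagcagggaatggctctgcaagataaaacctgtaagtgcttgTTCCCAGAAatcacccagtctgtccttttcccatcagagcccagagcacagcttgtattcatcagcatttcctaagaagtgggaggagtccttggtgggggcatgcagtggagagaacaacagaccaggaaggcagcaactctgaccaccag
Serpina3g: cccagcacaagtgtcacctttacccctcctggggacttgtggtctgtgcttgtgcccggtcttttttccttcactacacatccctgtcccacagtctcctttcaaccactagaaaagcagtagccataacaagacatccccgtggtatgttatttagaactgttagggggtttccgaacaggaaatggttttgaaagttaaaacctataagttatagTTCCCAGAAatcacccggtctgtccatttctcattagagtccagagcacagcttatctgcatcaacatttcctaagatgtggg

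The Serpina3n window held none of the letters searched, which were TTCNNNGAA, TGACGTCA (the cyclic AMP element), ACGTG (the hypoxia element), GAANNTTC and CCAAT, each on both strands. RefSeq windows were found for 19 of the 26 genes, 23 windows in all, since some genes have more than 1 annotated start. TTCNNNGAA occurred in 7 of the 23 (30.4%), from Serpina3f, Serpina3g, Serpina3i, Serpinb2 and Serpinb6a, against 8.3% of 32851 windows of all genes. Serpina3f and Serpinb2 each have overlapping windows that hold the same site, which is thus counted more than once. By gene the letters occurred in 5 of 19, and the Serpina3 windows are related (Serpina3f and Serpina3i are 67.7% identical), so these are not independent. ACGTG occurred in 13% of the serpin windows and 19.6% of all, CCAAT in 21.7% and 37.4%, GAANNTTC in 8.7% and 7.86%, and TGACGTCA in 0 and 1.79%. These are descriptions of letters, and a window without a match says nothing of the factor.

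Values of other cells and responses stood beside Serpina3n. The 6 neutrophil markers summed to 1213 to 15746 in VIPKO hypoxia, 809 to 3664 in VIPKO normoxia, 540.3 to 1617 in WT hypoxia and 642 to 959 in WT normoxia, with Camp under 10 in most libraries. The highest sums were in VIPKO hypoxia 1 and 3, at 15746 and 7623, whereas the libraries highest in Serpina3n, the library labelled VIPKO hypoxia 4 and VIPKO hypoxia 5, had 1695 and 1213. Of the 9 acute phase genes tested, 1 was higher and none lower in each comparison of VIPKO hypoxia. The shares of all genes called higher were 0.716% against WT hypoxia and 0.614% against VIPKO normoxia. Cp, which encodes the copper carrier ceruloplasmin, averaged 5938 ± 374 in VIPKO hypoxia and 3981 ± 465 in WT hypoxia (SD, n = 5 each; log2 fold change 0.58 ± 0.12, adjusted p = 0.0218). Lrg1, which encodes a leucine-rich acute phase glycoprotein, averaged 2875 ± 1102 in VIPKO hypoxia and 1223 ± 689 in VIPKO normoxia (log2 fold change 1.29 ± 0.27, adjusted p = 0.0226). In WT hypoxia against WT normoxia Lcn2, an iron-binding defence protein (1.15 ± 0.35, adjusted p = 0.0323), and Lrg1 (1.00 ± 0.25, adjusted p = 0.0145) rose, and in VIPKO normoxia against WT normoxia Cp rose (0.40 ± 0.12, adjusted p = 0.0449). The list's median log2 fold change was 0.57 in VIPKO hypoxia against WT hypoxia and 0.51 against VIPKO normoxia, where the medians over all genes were 0.02 and -0.01. The list was chosen with earlier results of these data known, so its counts and medians are not independent support. The part of these cells or responses in the Serpina3n result was not tested beyond these values.

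Serpina9, named centerin in humans, where it is known from germinal centre B cells, had its lowest levels in WT normoxia. It measured 35.04, 42.5, 61.5, 60.8 and 25.2 in VIPKO hypoxia 1 to 5 and 25.7, 83.1, 92.00 and 93.1 in VIPKO normoxia 1 to 4. The WT hypoxia 1 to 5 gave 73.6, 49.1, 85.8, 113 and 67.4, and the WT normoxia libraries had a lowest, median and highest signal of 5.03, 14.2 and 37.8. Every WT hypoxia library exceeded every WT normoxia library. Among VIPKO normoxia libraries, number 1 lay within the WT normoxia range and the other 3 above it.

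**Figure D3:**
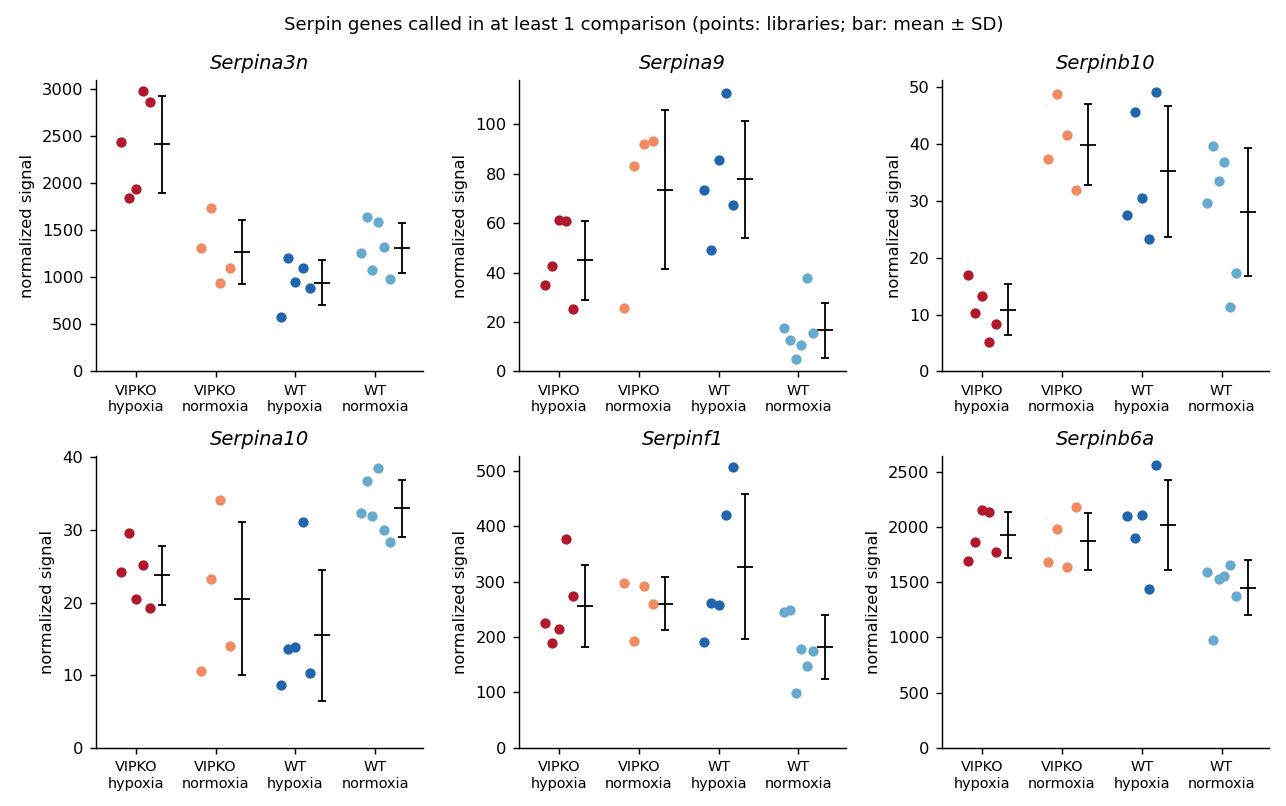
Normalised signal per library (y axis, starting at 0) of the 6 serpins called in at least 1 comparison, by group (x axis), with points for libraries and bars for mean ± SD. The 5 VIPKO hypoxia libraries are the highest of all for Serpina3n and lie below every VIPKO normoxia and WT hypoxia library for Serpinb10.

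Serpina9 (chromosome 12, 103994743 to 104013755, minus strand) rose 5.04-fold in WT hypoxia against WT normoxia, a log2 fold change of 2.33 ± 0.40 (adjusted p = 0.00248), and this call held in all 33 alternative fits. Non-overlap in this direction held for 4.13% of all genes. It rose 4.42-fold in VIPKO normoxia against WT normoxia, a log2 fold change of 2.14 ± 0.43 (adjusted p = 0.00698). That second call ended when VIPKO normoxia 2 and 3 and VIPKO hypoxia 2 were left out together (adjusted p = 0.198) and with mitochondrial ribosomal RNA as a covariate (log2 fold change 2.02 ± 0.83, adjusted p = 0.462). The covariate did not overlap between VIPKO normoxia and WT normoxia, so that fit cannot separate it from genotype. Both called comparisons share the WT normoxia libraries. No call was made for VIPKO hypoxia against VIPKO normoxia (log2 fold change -0.61 ± 0.45, 95% interval -1.54 to 0.32) or against WT hypoxia (-0.80 ± 0.42, 95% interval -1.68 to 0.08). The interaction was -2.94 ± 0.60 (adjusted p = 0.0397), called in 13 of 32 alternative fits. It was kept without VIPKO hypoxia 3, VIPKO normoxia 1, WT hypoxia 2, 4 or 5 or WT normoxia 5, and lost without any of the other 14 libraries, with adjusted p up to 0.124. It was also lost with mitochondrial ribosomal RNA as a covariate (adjusted p = 0.143), without VIPKO normoxia 2 and 3 and VIPKO hypoxia 2 together (adjusted p = 0.325), with quantile normalisation (adjusted p = 0.053) and without a variance trend (adjusted p = 0.0672).

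The 7 B cell markers summed to 853 to 1479.9 in VIPKO hypoxia, 2276 to 3644 in VIPKO normoxia, 1219 to 2219.7 in WT hypoxia and 1929 to 5265 in WT normoxia. The WT normoxia range overlapped those of VIPKO normoxia and WT hypoxia. The 4 germinal centre markers summed to 895 to 1396 in VIPKO hypoxia, 888 to 1229 in VIPKO normoxia, 1139 to 1538 in WT hypoxia and 1294 to 1470.3 in WT normoxia. Of these, Rgs13 was at most 5.39 in any library and was listed at 0 in all 5 WT hypoxia libraries. The part of these cells in the Serpina9 result was not tested beyond these values. Serpina9 overlaps the gene model Gm28577 on the same strand by 1837 bases, and 1.30% of its 50-base stretches occur in another gene.

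Serpinb10, whose human counterpart bomapin is known from blood-forming and monocytic cells, was lowest in VIPKO hypoxia. Its signal was 16.98, 10.4, 13.3, 5.24 and 8.39 in VIPKO hypoxia 1 to 5, and 37.4, 48.7, 41.6 and 31.9 in VIPKO normoxia 1 to 4. For WT hypoxia 1 to 5 the values were 27.5, 45.7, 30.4, 23.3 and 49.1, and the WT normoxia libraries had a lowest, median and highest signal of 11.4, 31.6 and 39.6. The VIPKO hypoxia libraries lay below every VIPKO normoxia and WT hypoxia library and overlapped the lower end of WT normoxia.

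Serpinb10 (chromosome 1, 107529003 to 107549271, plus strand) fell to 0.275 of its VIPKO normoxia level in VIPKO hypoxia, a log2 fold change of -1.86 ± 0.37 (adjusted p = 0.0145). It fell to 0.32 of its WT hypoxia level, a log2 fold change of -1.64 ± 0.35 (adjusted p = 0.0246). Non-overlap in this direction held for 2.44% and 1.95% of all genes. The first call ended without VIPKO normoxia 2 (adjusted p = 0.0512) or 3 (adjusted p = 0.0609), and without both of them and VIPKO hypoxia 2 (adjusted p = 0.3). The second ended without VIPKO hypoxia 2 (adjusted p = 0.0647), the library labelled VIPKO hypoxia 4 (adjusted p = 0.0717), VIPKO hypoxia 5 (adjusted p = 0.0568), WT hypoxia 2 (adjusted p = 0.0525) or WT hypoxia 3 (adjusted p = 0.0576), and without VIPKO normoxia 2 and 3 and VIPKO hypoxia 2 together (adjusted p = 0.0833). With mitochondrial ribosomal RNA as a covariate the second log2 fold change was -1.60 (adjusted p = 0.13), and with VIPKO hypoxia and WT hypoxia fitted alone the adjusted p was 0.115. The interaction of -2.24 ± 0.50 did not pass (adjusted p = 0.0619).

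Monocyte and dendritic cell markers, 6 genes of which F13a1 is also in the coagulation list, summed to 1945 to 3831 in VIPKO hypoxia, 2087 to 3395 in VIPKO normoxia, 1414 to 4797 in WT hypoxia and 2121 to 4198 in WT normoxia, and these ranges overlapped. Mouse Serpinb10 is annotated as a polymorphic pseudogene that overlaps Serpinb2 by 6476 bases on the same strand, and 6.61% of its 50-base stretches occur in Serpinb2. Serpinb2, which encodes a plasminogen activator inhibitor of macrophages and epithelium, measured 19.5, 12.5, 10.4, 2.10 and 17.98 in VIPKO hypoxia 1 to 5 and 3.40, 10.02, 2.13 and 8.84 in VIPKO normoxia 1 to 4. It reached 87.95 in WT hypoxia 5 and at most 6.57 in the other WT hypoxia libraries. It was 1.42 to 6.00 in WT normoxia, and it was not called in any contrast.

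The remaining clade B members are intracellular inhibitors, some of which protect cells from proteases of their own granules. Serpinb1a, Serpinb6a, Serpinb6b, Serpinb8 and Serpinb9 exceeded 100 in every library. Serpinb6a, which inhibits trypsin-like proteases and cathepsin G, measured 1697, 1863, 2155, 2139 and 1779 in VIPKO hypoxia 1 to 5 and 1680.2, 1982, 1637 and 2187 in VIPKO normoxia 1 to 4. In WT hypoxia 1 to 5 it had 2103, 1900.1, 2113, 1436 and 2565, and in WT normoxia a lowest, median and highest signal of 976, 1544 and 1653. WT hypoxia 4 lay inside the WT normoxia range and the other WT hypoxia libraries above it. Serpinb6a (chromosome 13, 33917918 to 34002794, minus strand) rose 1.39-fold in WT hypoxia against WT normoxia, a log2 fold change of 0.48 ± 0.14 (adjusted p = 0.0292). The call ended without WT hypoxia 1, 3 or 5 (adjusted p = 0.0642, 0.0741 and 0.0852) and without WT normoxia 2 or 6 (adjusted p = 0.0611 and 0.053). With mitochondrial ribosomal RNA as a covariate the log2 fold change was 0.32 (adjusted p = 0.0618), and with the compared groups fitted alone the adjusted p was 0.0527. Its locus overlaps Nqo2 and the antisense gene 1110046J04Rik on the opposite strand, and the counting strand is not given in the sources used here.

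None of Serpinb1a, Serpinb6b, Serpinb8, Serpinb9 and Serpinb9b was called. Serpinb9, the inhibitor of granzyme B inside cytotoxic lymphocytes, measured 1497 to 2405 over the 20 libraries, and its 4 pairwise log2 fold changes ran from 0.04 in VIPKO hypoxia against VIPKO normoxia to 0.22 in VIPKO normoxia against WT normoxia. Serpinb1a, which inhibits neutrophil elastase and cathepsin G, measured 208 to 450.0, Serpinb6b 1114 to 1917 and Serpinb8, which in humans inhibits furin, 148 to 304. The cytotoxic lymphocyte markers meanwhile summed to 168 to 459.6 in VIPKO hypoxia, 438 to 624 in VIPKO normoxia, 218 to 408.2 in WT hypoxia and 436 to 766 in WT normoxia. Serpinb9b, a low relative of Serpinb9, measured up to 22.7 in VIPKO hypoxia and up to 14.2 in VIPKO normoxia, with a log2 fold change of 1.31 ± 0.37 that did not pass (adjusted p = 0.114). Of 12 genes for granule serine proteases, some of which these inhibitors target, 6 could be tested and limma called none in any contrast. At an unadjusted p under 0.05 there was 1 in VIPKO hypoxia against VIPKO normoxia and 2 in WT hypoxia against WT normoxia, beside 13% and 33% of all genes. There were 0 in each other contrast.

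Antithrombin (Serpinc1), heparin cofactor II (Serpind1) and the protein Z-dependent protease inhibitor (Serpina10) restrain thrombin and factor Xa, and are known mainly as liver products. All were low in lung. Serpina10 measured 24.2, 29.6, 20.5, 25.2 and 19.2 in VIPKO hypoxia 1 to 5 and 10.6, 23.3, 34.2 and 13.97 in VIPKO normoxia 1 to 4. Its signal was 8.71, 13.5, 13.8, 31.1 and 10.3 in WT hypoxia 1 to 5, and its lowest, median and highest values in WT normoxia were 28.3, 32.1 and 38.6. WT hypoxia 4, with the shallowest depth, stood within the WT normoxia range while the other 4 WT hypoxia libraries stood below it. Serpina10 (chromosome 12, 103614786 to 103631444, minus strand) fell to 0.444 of its WT normoxia level in WT hypoxia, a log2 fold change of -1.17 ± 0.31 (adjusted p = 0.0181), and the call ended without WT hypoxia 1 (adjusted p = 0.0526). In VIPKO hypoxia against VIPKO normoxia the log2 fold change was 0.32 ± 0.34 (adjusted p = 0.725), and the interaction of 1.49 ± 0.46 did not pass (adjusted p = 0.144).

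Serpinc1 measured 53.4, 72.2, 32.6, 44.4 and 40.2 in VIPKO hypoxia 1 to 5, 50.6, 55.2, 64.5 and 40.9 in VIPKO normoxia 1 to 4 and 55.8, 41.7, 39.4, 57.8 and 32.6 in WT hypoxia 1 to 5, with a lowest, median and highest signal of 43.3, 62.6 and 86.8 in WT normoxia. The groups overlapped, and its estimate in WT hypoxia against WT normoxia was -0.51 ± 0.23 (adjusted p = 0.125). Serpind1, which lies inside Pi4ka on the opposite strand, measured 47.2 to 74.7 in VIPKO hypoxia and 30.8 to 46.6 in WT hypoxia. Those groups did not overlap, but the log2 fold change of 0.39 ± 0.20 did not pass (adjusted p = 0.293). In WT hypoxia against WT normoxia, where its range was 45.3 to 72.4, the estimate was -0.54 ± 0.19 (adjusted p = 0.0604). The 5 hepatocyte markers found, of 6 listed, summed to 39.5 to 98.2 in VIPKO hypoxia, 16.8 to 32.02 in VIPKO normoxia, 16.6 to 54.4 in WT hypoxia and 8.39 to 31.2 in WT normoxia, with Alb at or under 19.4 in every library.

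Of the coagulation list, 14 of 15 genes could be tested. In WT hypoxia against WT normoxia 4 were higher and none lower, beside 7.88% and 6.77% of all genes. In VIPKO normoxia against WT normoxia 2 were higher and 1 lower, beside 4.69% and 3.96% of all genes. F3, which encodes tissue factor, the trigger of coagulation, averaged 941 ± 141 in WT hypoxia (SD, n = 5) and 640.2 ± 53.3 in WT normoxia (SD, n = 6), a log2 fold change of 0.55 ± 0.11 (adjusted p = 0.00466). In VIPKO normoxia it averaged 922 ± 127 (SD, n = 4), 0.52 ± 0.11 above WT normoxia on the log2 scale (adjusted p = 0.00977). F10 rose in WT hypoxia (log2 fold change 0.93 ± 0.28, adjusted p = 0.034), as did F7 (0.90 ± 0.27, adjusted p = 0.0345) and Procr, the endothelial receptor of protein C (0.72 ± 0.24, adjusted p = 0.0457). In VIPKO normoxia against WT normoxia F7 rose too (0.96 ± 0.29, adjusted p = 0.045). Vwf, the platelet adhesion factor of endothelium, fell in that comparison (-0.45 ± 0.14, adjusted p = 0.0461). In VIPKO hypoxia F3 averaged 838 ± 95.9, F10 197 ± 61.1, F7 355 ± 152 and Procr 67.8 ± 24.2 (SD, n = 5). In WT normoxia F10 averaged 71.5 ± 22.7, F7 140 ± 49.5 and Procr 57.6 ± 19.1. F7 and F10 were thus highest in VIPKO hypoxia, and no contrast here sets that group against WT normoxia. None of the 14 was called by limma in either comparison of VIPKO hypoxia or in the interaction, where 4 each had an unadjusted p under 0.05. Of all genes, 18.8% reached that level against WT hypoxia, 13% against VIPKO normoxia and 14.2% in the interaction.

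Serpine2 encodes protease nexin 1, which inhibits thrombin and urokinase. It measured 2329, 1993, 1897, 2767 and 2501 in VIPKO hypoxia 1 to 5, 1522, 1626, 1451 and 1769 in VIPKO normoxia 1 to 4 and 1523, 1672, 2100.1, 2764 and 1807 in WT hypoxia 1 to 5. Its lowest, median and highest signals in WT normoxia were 1253, 1672 and 1794. Every VIPKO hypoxia library lay above every VIPKO normoxia library, as for 2.7% of all genes, but the log2 fold change of 0.52 ± 0.15 did not pass (adjusted p = 0.115). Of 9 plasminogen activation genes tested, 2 were lower in WT hypoxia against WT normoxia, beside 6.77% of all genes. Plat, which encodes tissue plasminogen activator, averaged 614 ± 114 in WT hypoxia and 839 ± 135 in WT normoxia (log2 fold change -0.46 ± 0.15, adjusted p = 0.0464), and Thbs1, the matrix protein thrombospondin, averaged 3889 ± 1334 and 6862 ± 1393 in those groups (-0.86 ± 0.21, adjusted p = 0.0154). Anxa2, a plasminogen-binding surface protein, was higher in VIPKO normoxia against WT normoxia (0.36 ± 0.11, adjusted p = 0.0407). None of the 9 was called by limma in either comparison of VIPKO hypoxia, with 1 at an unadjusted p under 0.05 against WT hypoxia and 0 against VIPKO normoxia. Of all genes 18.8% and 13% reached that level.

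**Figure D4:**
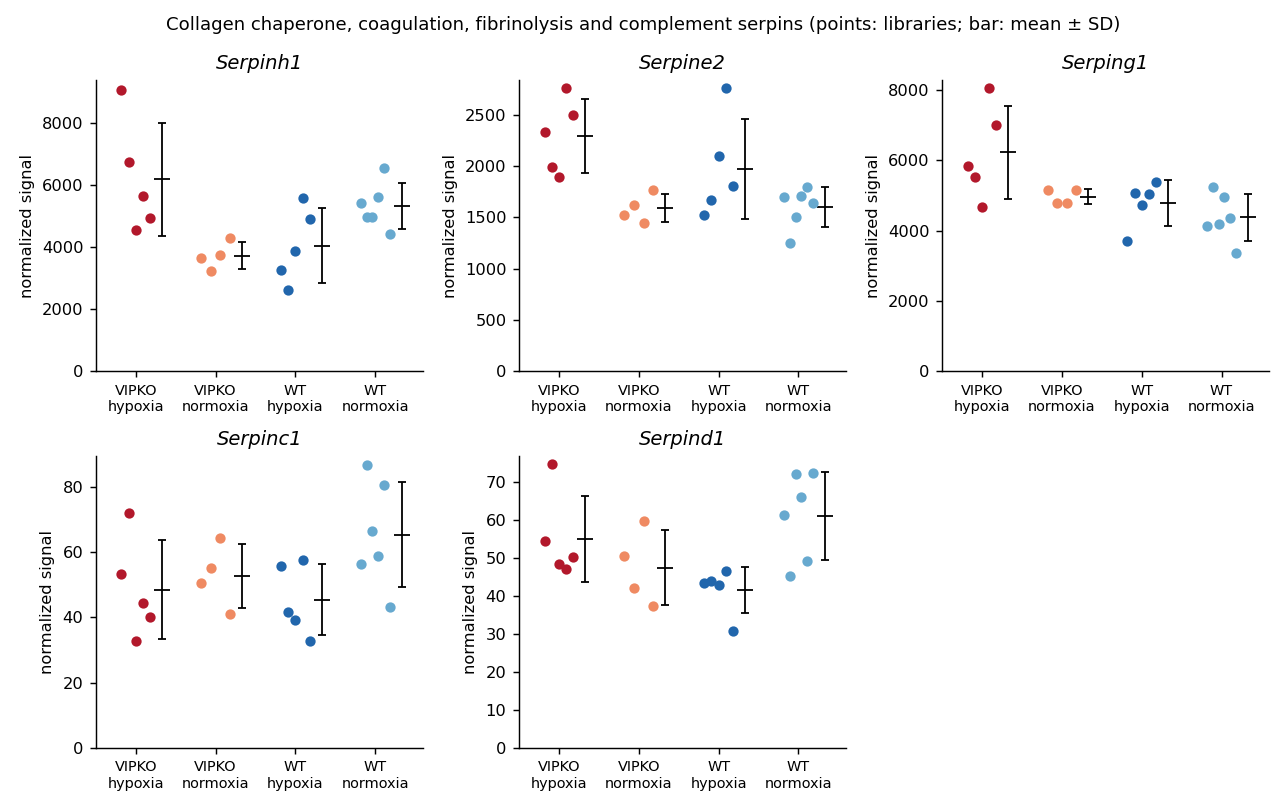
Normalised signal per library (y axis, starting at 0) of Serpinh1, Serpine2, Serping1, Serpinc1 and Serpind1 by group (x axis), with points for libraries and bars for mean ± SD. None of these 5 passed the threshold, and VIPKO hypoxia lies above VIPKO normoxia without overlap for Serpinh1 and Serpine2.

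Serping1 encodes C1 inhibitor, which blocks the first complement proteases and plasma kallikrein. It measured 5838, 5527, 4680.0, 8051 and 6996 in VIPKO hypoxia 1 to 5, 5148, 4776, 4786 and 5161 in VIPKO normoxia 1 to 4 and 3697, 5064, 4738, 5034 and 5382 in WT hypoxia 1 to 5, with a lowest, median and highest signal of 3365, 4280.3 and 5240.1 in WT normoxia. The groups overlapped, and the largest of its estimates, in VIPKO hypoxia against WT hypoxia, was 0.36 ± 0.13 (adjusted p = 0.15). Of 9 complement genes tested, C1ra, which encodes one of the proteases it blocks, rose in WT hypoxia against WT normoxia (log2 fold change 0.42 ± 0.10, adjusted p = 0.0136). C2 rose there too (0.80 ± 0.27, adjusted p = 0.0495), where 7.88% of all genes were called higher. In the other contrasts limma called no complement gene, and 0 to 2 in each had an unadjusted p under 0.05, beside 13% to 25.3% of all genes.

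Serpinh1 encodes the chaperone that binds procollagen in the endoplasmic reticulum and inhibits no protease. Its signal was 9080.2, 6738, 4553, 5667 and 4932 in VIPKO hypoxia 1 to 5 and 3640.1, 3236, 3757 and 4297 in VIPKO normoxia 1 to 4. In WT hypoxia 1 to 5 it was 3265, 2614, 3869.6, 5598 and 4925, and in WT normoxia its lowest, median and highest values were 4429, 5205 and 6567. VIPKO normoxia lay below WT normoxia and below VIPKO hypoxia without overlap, as for 5.13% and 2.7% of all genes in those directions. No contrast passed: the log2 fold change was 0.62 ± 0.19 in VIPKO hypoxia against WT hypoxia (adjusted p = 0.0857), 0.69 ± 0.20 against VIPKO normoxia (adjusted p = 0.118) and -0.51 ± 0.19 in VIPKO normoxia against WT normoxia (adjusted p = 0.099). Hypoxia had estimates of opposite sign in the genotypes, with -0.44 ± 0.18 in WT (adjusted p = 0.0978), and the interaction was 1.13 ± 0.27 (adjusted p = 0.0749). That interaction passed in 4 of 32 alternative fits, which were those with library weights, without VIPKO hypoxia 3, without WT hypoxia 4, and without WT hypoxia 5 and VIPKO hypoxia 3 together. Its adjusted p ran from 0.00432 to 0.398 over the 32.

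Of 13 collagen and collagen processing genes tested, 3 were higher in VIPKO hypoxia against WT hypoxia, 2 higher against VIPKO normoxia and 2 higher in the interaction, with none lower in any of these and 7 in each at an unadjusted p under 0.05. In the same order, the shares of all genes called higher were 0.716%, 0.614% and 0.134%, and those at the unadjusted level were 18.8%, 13% and 14.2%. This list too was chosen with earlier results of these data known, so its counts are not independent support. Lox, the enzyme that crosslinks collagen and elastin, averaged 2638 ± 467 in VIPKO hypoxia (SD, n = 5), 1049 ± 78.4 in VIPKO normoxia (n = 4), 1388 ± 368 in WT hypoxia (n = 5) and 1302 ± 313 in WT normoxia (n = 6). Its log2 fold change was 0.95 ± 0.18 in VIPKO hypoxia against WT hypoxia (adjusted p = 0.0153) and 1.32 ± 0.19 against VIPKO normoxia (adjusted p = 0.000758). Plod1, a collagen lysyl hydroxylase, averaged 1212 ± 140.3, 749.6 ± 78.3, 838 ± 157 and 883 ± 86.2 in the same groups in the same order, with log2 fold changes of 0.54 ± 0.12 (adjusted p = 0.0252) and 0.69 ± 0.12 (adjusted p = 0.00582). Col5a2 rose in VIPKO hypoxia against WT hypoxia (0.78 ± 0.19, adjusted p = 0.0439), while Col5a1 fell in WT hypoxia against WT normoxia (-1.01 ± 0.27, adjusted p = 0.0194). P4hb, a subunit of the collagen prolyl hydroxylases, rose in WT hypoxia against WT normoxia (0.33 ± 0.11, adjusted p = 0.041). The interaction was 1.23 ± 0.25 for Lox (adjusted p = 0.0397) and 0.78 ± 0.17 for Plod1 (adjusted p = 0.0463). Fibroblast markers, 4 genes, summed to 10576 to 15740.2 in VIPKO hypoxia, 10056 to 12885 in VIPKO normoxia, 8569 to 14395 in WT hypoxia and 11302 to 13246 in WT normoxia, and their part in these calls was not tested.

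The Serpinh1 promoter window (chr7:99353190-99353489, minus strand, RefSeq, GRCm38.p6) is shown because ACGTG, the core letters of the hypoxia element, occurs in it once, here in capitals as CACGT on the other strand. Those letters also occur in the windows of Serpinf1 and Serpind1. They were found in 13% of the serpin windows and 19.6% of all windows.
Serpinh1: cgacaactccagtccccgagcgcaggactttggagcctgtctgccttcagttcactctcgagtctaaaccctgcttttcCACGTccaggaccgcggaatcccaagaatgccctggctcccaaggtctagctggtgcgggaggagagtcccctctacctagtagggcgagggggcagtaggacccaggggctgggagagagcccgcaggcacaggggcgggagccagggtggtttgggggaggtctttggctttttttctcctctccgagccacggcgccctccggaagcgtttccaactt

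Serpinf1 encodes pigment epithelium-derived factor, a serpin without protease inhibition that restrains vessel growth. It measured 225, 189, 214, 377 and 275 in VIPKO hypoxia 1 to 5 and 297, 193, 291 and 259.6 in VIPKO normoxia 1 to 4. The values were 191, 261, 257, 419.8 and 506 in WT hypoxia 1 to 5, and the lowest, median and highest in WT normoxia were 98.98, 176 and 248. Groups overlapped, with WT hypoxia 4 and 5 the highest libraries of all. Serpinf1 (chromosome 11, 75409769 to 75422701, minus strand) rose 1.76-fold in WT hypoxia against WT normoxia, a log2 fold change of 0.82 ± 0.25 (adjusted p = 0.0371). The call ended without WT hypoxia 5 (log2 fold change 0.64, adjusted p = 0.106), WT hypoxia 3 or 4 (adjusted p = 0.0593 and 0.0643) or WT normoxia 3, 4, 5 or 6 (adjusted p = 0.0771, 0.0603, 0.059 and 0.0591). It also ended with mitochondrial ribosomal RNA as a covariate (adjusted p = 0.0787), quantile normalisation (adjusted p = 0.0508), no variance trend (adjusted p = 0.0519) or the compared groups fitted alone (adjusted p = 0.059). Adipocyte markers, 6 genes, summed to 586 to 2434 in VIPKO hypoxia, 405 to 1890.3 in VIPKO normoxia, 682 to 11277 in WT hypoxia, the upper end in WT hypoxia 5, and 73.97 to 437 in WT normoxia. Their part in the Serpinf1 result was not tested.

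Serpini1, which encodes neuroserpin, an inhibitor of tissue plasminogen activator made by neurons, measured 36.1, 49.4, 36.7, 54.5 and 45.6 in VIPKO hypoxia 1 to 5, 39.01, 36.6, 40.6 and 59.4 in VIPKO normoxia 1 to 4 and 21.4, 27.1, 17.98, 54.4 and 38.8 in WT hypoxia 1 to 5. In WT normoxia its lowest, median and highest signals were 22.7, 28.2 and 50.7. The groups overlapped, and its estimate in VIPKO hypoxia against WT hypoxia was 0.56 ± 0.29 (adjusted p = 0.298). Serpina7, the thyroxine carrier of plasma, measured 1.38 to 23.6 and was not called. The antitrypsin genes were at most 1.65 (Serpina1a), 6.46 (Serpina1b) and 3.38 (Serpina1d), and share 35.8% to 67.4% of their 50-base stretches with other genes. Serpinf2, which encodes the plasma inhibitor of plasmin, reached at most 10.5. These plasma inhibitors were thus under the filter in lung RNA and were not tested.

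Cysteine cathepsins are lysosomal proteases, some of which clade A and B serpins can inhibit. Of 8 tested, 2 were higher in VIPKO normoxia against WT normoxia, 3 were higher in WT hypoxia against WT normoxia, and none was lower in either. The shares of all genes called higher were 4.69% and 7.88%. Ctsk encodes the elastin- and collagen-degrading cathepsin K. It averaged 919 ± 564 in VIPKO hypoxia, the highest group, and 750.5 ± 808 in VIPKO normoxia. In the WT groups Ctsk averaged 561 ± 172 in hypoxia and 177 ± 47.4 in normoxia. Its log2 fold change against WT normoxia was 1.62 ± 0.44 in VIPKO normoxia (adjusted p = 0.0262) and 1.65 ± 0.41 in WT hypoxia (adjusted p = 0.0149). Ctss rose in the same comparisons (0.74 ± 0.22, adjusted p = 0.0402, and 0.77 ± 0.20, adjusted p = 0.0195), and Ctsb in the second (0.46 ± 0.12, adjusted p = 0.019). Alveolar macrophage markers summed to 11962 to 44745 in VIPKO hypoxia and 5302 to 72284 in VIPKO normoxia. They summed to 7388 to 17739 in WT hypoxia and 2592 to 5512 in WT normoxia. Their part in these calls was not tested. Of 9 inhibitors outside the serpin family, Wfdc2 (0.79 ± 0.20, adjusted p = 0.0172) and Spint1 (0.74 ± 0.20, adjusted p = 0.0192) rose in WT hypoxia against WT normoxia.

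A block of clade B serpins on chromosome 1 that is known from squamous epithelium was seen in 1 library. In WT hypoxia 5 Serpinb12 measured 1094, 494 times the next library, and Serpinb3a, a relative of human squamous cell carcinoma antigen, 957, 98.6 times the next. Serpinb5, the epithelial serpin maspin, measured 231 there, Serpinb11 125, Serpinb7 34.3, and Serpinb3c and Serpinb3b 143 and 28.6, both listed at 0 in the other 19 libraries. Serpinb3a, Serpinb3b and Serpinb3c share 12.2% to 15.2% of their 50-base stretches with other genes. None of these 7 was over 11.9 in another library, and the highest other values of Serpinb5 and Serpinb3a were in VIPKO hypoxia 3. The squamous keratins moved with them: Krt4 and Krt13 were 43127 and 39977 in WT hypoxia 5 and at most 11.7 and 5.66 elsewhere. These genes stayed under the filter and were not tested. Among the 26 serpins that passed it, 6 had their highest value in WT hypoxia 5, namely Serpinf1, Serpinb1a, Serpinb2, Serpinb6a, Serpinb8 and Serpinb10. Without that library and VIPKO hypoxia 3 the calls of Serpinf1 (adjusted p = 0.0958) and Serpinb6a (adjusted p = 0.072) in WT hypoxia against WT normoxia were lost.

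**Figure D5:**
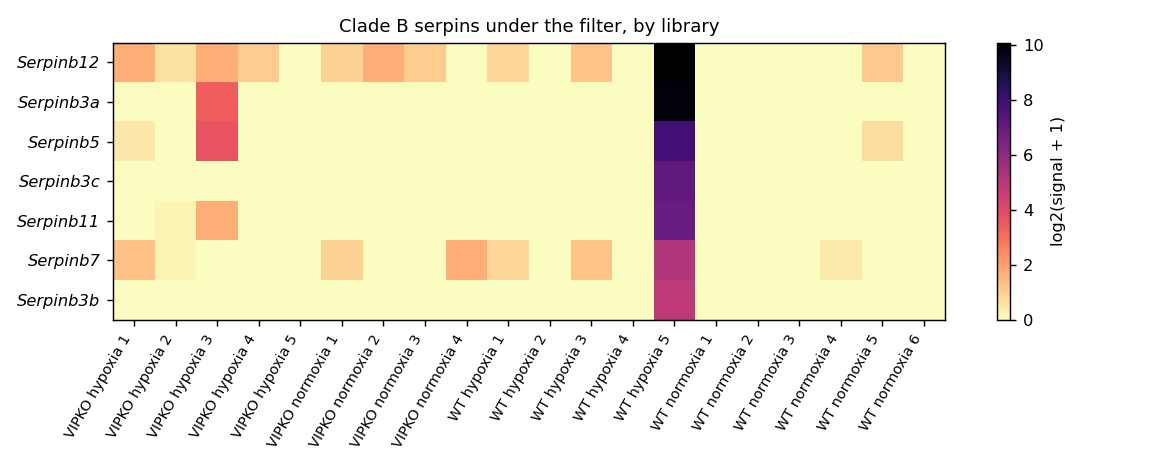
Heat map of log2(signal + 1) of 7 clade B serpins that stayed under the filter (rows) in each of the 20 libraries (columns). WT hypoxia 5 stands apart, with signals from 28.6 (Serpinb3b) to 1094 (Serpinb12), and VIPKO hypoxia 3 shows weak signal for Serpinb3a and Serpinb5.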

How the data were processed

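The deposited table holds normalised gene counts from the authors, treated here as a signal; reads were processed in Partek against mm10, per the submitters' processing notes. Per the labels' protocols, RNA came from an RNeasy extraction and went into a directional NEBNext library kit. For the aligner, the counting strand and the normalisation method the sources used here give nothing. Of 30746 rows 55 had no gene name, at most 0.0187% of signal, and were left out. Low values fell on library-specific steps, but only 79.5% to 88.8% lay within 0.05 reads of a whole read in the 20 libraries, so no count model was used. Library totals were 18.2 M to 21.0 M signal units.

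Values were tested as log2(signal + 1) with limma 3.58.1 in R 4.3.3 (4 group means, empirical Bayes with a variance trend, all 20 libraries), for genes with 10 or more in at least 4 libraries, with Benjamini-Hochberg adjustment and a threshold of 0.05. limma's standard errors are given after ±. Alternatives changed the pseudocount, filter, scaling (trimmed mean of M values, or quantiles), variance trend, library weights, samples fitted, libraries left out, a mitochondrial ribosomal RNA covariate and a replicate block. Promoter windows came from RefSeq (GRCm38.p6) and loci from GENCODE vM21 (GRCm38). Figures used matplotlib 3.10.9 under Python 3.11.15.

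The members and lists were chosen with earlier results of these data known, and the B cell, germinal centre and monocyte lists after the values were seen. Library-by-library values are given for members called in any contrast and for uncalled members with a textbook vascular role, the other members by ranges, and called genes of each list by name. Of these genes, 1 member and 1 marker gene are not reported here by name; the member stays in the counts and medians, the marker in no sum.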

Additional observations from a re-analysis of the deposited data

Results flagged for a closer look

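In a group of 4 to 10 libraries, 1 library was looked for that lay further from the rest than Dixon's 95% limit allows. Of 104 gene and group combinations 6 had one, where chance gives about 5.2. Serpina9 was 25.7 in VIPKO normoxia 1, below the other VIPKO normoxia libraries. Serpina3f was 3.89 in WT hypoxia 4 and Serpind1 30.8 in WT hypoxia 5, each below the other WT hypoxia libraries. Serpina3c was 73.8 in WT normoxia 5, Serpinb6a 976 in WT normoxia 2 and Serpinb9 1978 in WT normoxia 5, each apart from the other WT normoxia libraries.

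The limma interaction was called for Serpina3n, at 1.43 on the log2 scale (adjusted p = 0.0384), and for Serpina9, at -2.94 (adjusted p = 0.0397). These calls held in 17 and 13 of 32 alternative fits. Both were lost with mitochondrial ribosomal RNA as a covariate and without a variance trend.

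Among the 21 serpins under the level filter, which the comparisons do not use, 10 reached a signal of 10 in at least 1 library and had their highest value outside WT normoxia. In WT hypoxia 5 these were Serpinb12 at 1094, Serpinb3a at 957, Serpinb5 at 231, Serpinb3c at 143, Serpinb11 at 125, Serpinb7 at 34.3 and Serpinb3b at 28.6. Elsewhere Serpina12 was 15.5 in WT hypoxia 4, Serpinb1b 21.0 in VIPKO normoxia 4 and Serpinf2 10.5 in the library labelled VIPKO hypoxia 4.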

How the results depend on the processing

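The counts of serpins called under each alternative are given in the order VIPKO normoxia against WT normoxia, WT hypoxia against WT normoxia, VIPKO hypoxia against VIPKO normoxia, VIPKO hypoxia against WT hypoxia and interaction, where the fit reported gave 1, 4, 2, 2 and 2. They were 7, 9, 5, 5 and 6 with library weights, and 2, 2, 1 and 1 with the compared groups fitted alone, which gives no interaction. With mitochondrial ribosomal RNA as a covariate they were 0, 2, 1, 1 and 0, without a variance trend 1, 4, 1, 2 and 0, and with quantile normalisation 1, 3, 1, 2 and 2. A filter of 50 or more in at least 4 libraries gave 1, 3, 1, 1 and 2 and left 18 serpins to test, without Serpina10 and Serpinb10. Leaving out VIPKO normoxia 2 and 3 and VIPKO hypoxia 2 gave 0, 4, 0, 1 and 0, and leaving out WT hypoxia 5 and VIPKO hypoxia 3 gave 1, 2, 2, 4 and 4. Leaving out each library in turn gave 1 to 2, 2 to 6, 0 to 3, 1 to 4 and 0 to 5. Over these fits 359 to 2551, 1382 to 4710, 88 to 392, 35 to 1339 and 4 to 541 of all genes were called. For the other alternatives the matching counts of all genes are not given here. Gains and losses in the serpin counts are thus not read as particular to serpins. Pseudocounts of 0.1 and 10, no filter and rescaling by trimmed means of M values gave the reported counts. Apart from these constructions the cause was not tested. With the replicate number as a block the counts were 1, 2, 0, 2 and 0. Over 27 pairs of libraries that share a number, deviations from group means correlated by -0.289 to 0.410 (median -0.018), with 7 over 0.1. Over 122 pairs with different numbers they correlated by -0.567 to 0.560 (median 0.008), with 26 over 0.1. By the median, libraries that share a number were no more alike than others, which gives no sign that the numbers pair them. The 11 called values kept their sign in all 358 refits and lost the call in 83. The 119 values not called changed sign in 128 of 3866 refits, and 49 refits called one of them. Depth limits the low genes: 3 reads stand for a signal of 11.7 in WT hypoxia 4, where Serpinb2 was listed at 0.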
